A study of Mus musculus with 8 samples.

Results

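The 10 genes described here are markers of the endothelium, the cell layer that lines blood vessels: Emcn, Pecam1, Cdh5, Kdr, Tek, Egfl7, Esam, Eng, Plvap and Vwf. They were chosen by name among the 18820 genes that the array annotation names through a probe set with exactly 1 symbol. Each of the 10 had 1 such probe set. Earlier results of these data were known when the choice was made. Counts of the 10 genes set beside shares of all probe sets are therefore not independent observations. The material was CD3-positive T cells taken out of xenografts, tissues made from human embryonic stem cells and grafted into mice, and 8 mouse expression arrays were available. In 4 samples the host was tolerant, having been injected with antibodies against CD4, CD8 and CD40L, and in 4 samples the host was untreated and was rejecting its graft. All hosts were wild-type CD1 mice, an outbred strain, and the T cells were collected at day 30 in both groups. The age of the mice, the antibody clones and doses, and whether each sample came from its own mouse are not stated in the labels. The p-values therefore cover the spread among these 4 and 4 samples only, and that spread may be technical.

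Endothelial cells are joined to one another by adhesion molecules at their borders, and they depend on VEGF and angiopoietin signals received through receptor tyrosine kinases. Inflamed tissue recruits T cells across this layer, and a graft survives only if vessels supply it. T cells carry little or no RNA of most of these genes. Exceptions are known: PECAM1 is also carried by leukocytes and platelets, VWF by platelets and endoglin by activated macrophages.

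All levels are on the log2 RMA scale, and each difference is the tolerant minus the rejecting value. The arrays fell into 2 sets by their number. Actb, which encodes beta-actin and was chosen because it shows the split, read 6.54 to 7.82 on arrays numbered 3 and 4, whichever the group, and 1.62 to 1.95 on arrays numbered 1 and 2. The table holds no detection calls, so a background line was set on each array at the 99th percentile of the 1182 probe sets that target olfactory or vomeronasal receptors. On arrays numbered 3 and 4 the share of all genes above that line was 16.3% and 15.9% in tolerant samples, against 14.2% and 9.12% in rejecting samples. On arrays numbered 1 and 2 it was 2.77% and 2.52% in tolerant samples, against 4.81% and 5.57% in rejecting samples. The share was thus higher in tolerant samples in one set and lower in the other, and its part in the differences given here was not tested. Results are therefore shown for the 8 arrays together and for each set of 4, which holds 2 tolerant and 2 rejecting arrays. In bulk RNA of this kind, fewer cells of a type and less RNA per cell cannot be told apart.

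Most endothelial genes lay near background. Of the 80 values of the 10 genes on 8 arrays, 11 exceeded the line of their array: 4 each on tolerant arrays 3 and 4, 2 on rejecting array 3 and 1 on rejecting array 2. The genes above the line on at least 1 array were Emcn, Egfl7, Eng, Plvap and Vwf, 5 of 10, where 26.4% of the 21218 probe sets with 1 symbol and 4.15% of the receptor probe sets that set the line did the same. Pecam1, Cdh5, Kdr, Tek and Esam stayed under it on all 8 arrays. The T cell label was checked beside them: Cd3e, the epsilon subunit of CD3, exceeded the line on 5 arrays, while 4 of the 9 measured T cell markers, Cd3d, Cd247, Trat1 and Cd28, did so on 0.

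**Figure D1:**
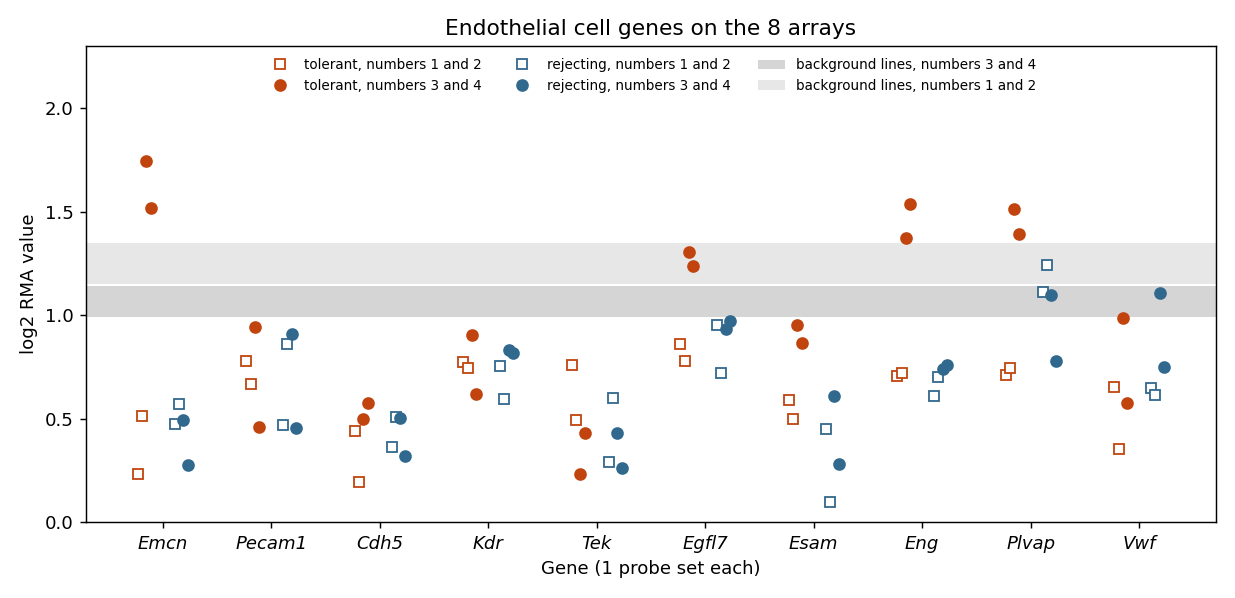
Log2 RMA value (y axis) of each endothelial gene (x axis) on the 8 arrays, 1 point per array, with tolerant arrays left of rejecting ones; circles are arrays numbered 3 and 4, squares arrays numbered 1 and 2, and the grey bands span the background lines. Emcn, Eng, Egfl7 and Plvap on tolerant arrays 3 and 4 sit above the lines of those arrays, and most other points lie below the lines.

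Over all 8 arrays, none of the 10 endothelial genes differed past the threshold in limma with Benjamini-Hochberg adjustment over 21218 probe sets. The count was 0 of 10, where 0 probe sets, or 0%, passed in the whole table. At an unadjusted p under 0.05 there was 1 of 10, Esam, against 2.89% of all probe sets. The difference was above 0 for 9 of 10 genes, against 50.1% of all probe sets, and the median difference was 0.06, against 0.00 over all probe sets. Leaving out tolerant replicate 3 took the count above 0 to 5 of 10 and the median to 0.02, while the median was 0.11 without tolerant replicate 2. The 2 groups of 4 overlapped in all 10, where 1.09% of probe sets stood apart with the tolerant group higher and 1.13% with it lower. This fit had no term for the set of arrays, so the split between the sets added to its spread. With such a term the count past the threshold was again 0. The lowest limma adjusted p of the 10 genes was then 0.839, for Esam and Eng.

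The largest difference over all arrays belonged to Emcn, which encodes endomucin, a sialomucin on the surface of capillary and venous endothelium. Its mean was 1.00 ± 0.74 in tolerant and 0.45 ± 0.13 in rejecting samples (SD, n = 4 each). The difference of 0.55 had a 95% interval of -0.15 to 1.25 (limma adjusted p = 1). It was 0.30 without tolerant replicate 3 and 0.38 without tolerant replicate 4, and 0.81 without tolerant replicate 1. Eng, which encodes endoglin, a co-receptor for TGF-beta and BMP ligands, had 1.08 ± 0.44 in tolerant and 0.70 ± 0.07 in rejecting samples (SD, n = 4 each). Its difference of 0.38 became 0.23 without tolerant replicate 4 and 0.51 without tolerant replicate 1. In both genes the tolerant spread came from the split between arrays numbered 3 and 4, which read high, and arrays numbered 1 and 2, which did not. Esam, a junctional adhesion molecule of endothelium and platelets, averaged 0.73 ± 0.22 in tolerant and 0.36 ± 0.22 in rejecting samples (SD, n = 4 each), which differ by 0.37 (limma adjusted p = 1). The other 7 genes had differences between -0.14 for Vwf and 0.15 for Egfl7.

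On the arrays numbered 3 and 4, Emcn, Eng, Plvap, Esam and Egfl7 read higher on both tolerant arrays than on both rejecting arrays, and none of the 10 genes read lower on both. This is 5 of 10, where 19.3% of all probe sets had both tolerant arrays above both rejecting ones and 20.0% had both below. The difference was above 0 for 7 of 10, against 48.2% of all probe sets. The median difference of the 10 genes was 0.22, against -0.01 over all probe sets. None of the 10 passed at an adjusted p under 0.05 in limma, where 11 probe sets, or 0.0518%, did so in the whole table. The same 5 genes had an unadjusted p under 0.05, against 4.64% of probe sets that were higher with such a p. A comparison of 2 against 2 arrays leaves few degrees of freedom.

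Emcn (probe set 10496359) had 1.74 and 1.52 on tolerant arrays 3 and 4, against 0.49 and 0.28 on rejecting arrays 3 and 4. The other 4 arrays gave 0.23 and 0.51 for tolerant arrays 1 and 2 and 0.47 and 0.57 for rejecting arrays 1 and 2. Only tolerant arrays 3 and 4 stood above background, and the other 6 values overlapped one another. The difference on arrays 3 and 4 was 1.25 ± 0.14 (standard error; limma adjusted p = 0.111), and 0.297% of all probe sets had a larger one. Since both rejecting values lay under their lines, the tolerant mean of 1.63 was set against their mean line of 1.08, a 1.47-fold ratio. No sampling error was estimated for this ratio. It was taken only for genes with this pattern, so the choice of genes fixes its direction. The measured mean of the rejecting arrays was 0.38. Emcn came under the threshold in some alternative fits of the same values, with an adjusted p of 0.0419 under trended and robust moderation and 0.0367 where the probe sets of each gene were averaged before the test. Over the alternatives its adjusted p ran between 0.0367 and 0.543.

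Eng (10471486) read 1.37 and 1.54 on tolerant arrays 3 and 4, against 0.74 and 0.76 on rejecting arrays 3 and 4. Tolerant arrays 1 and 2 gave 0.71 and 0.72, and rejecting arrays 1 and 2 gave 0.61 and 0.70. As with Emcn, 2 arrays stood above the rest, and the 6 others lay within 0.61 to 0.76. The difference on arrays 3 and 4 was 0.71 ± 0.11 (standard error, limma adjusted p = 0.224). The tolerant mean was 1.30-fold above the mean line of the rejecting arrays, a ratio with the same limits as that of Emcn.

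Promoter sequence was available in the RefSeq table (GRCm38.p6) for 5 of the 10 genes, Emcn, Kdr, Tek, Egfl7 and Eng. Emcn and Eng are shown because they had the largest differences on arrays 3 and 4, and Tek and Kdr because theirs lay near 0. Each line is the 250 bases before the annotated transcript start, 5′ to 3′ on the strand of the gene: chr3:137340828-137341077 (plus strand) for Emcn, chr2:32646345-32646594 (plus) for Eng, chr4:94739039-94739288 (plus) for Tek and chr5:75978456-75978705 (minus) for Kdr. Capitals mark CAGGAA or CCGGAA on either strand (TTCCTG or TTCCGG on the other), letters that hold the GGAA core bound by ETS factors, the family of ERG and FLI1, which act in endothelium.
Emcn: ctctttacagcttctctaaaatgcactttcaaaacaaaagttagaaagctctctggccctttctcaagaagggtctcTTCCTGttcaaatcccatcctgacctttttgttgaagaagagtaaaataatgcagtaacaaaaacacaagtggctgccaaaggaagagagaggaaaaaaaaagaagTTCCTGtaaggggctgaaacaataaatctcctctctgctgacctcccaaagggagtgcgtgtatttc
Eng: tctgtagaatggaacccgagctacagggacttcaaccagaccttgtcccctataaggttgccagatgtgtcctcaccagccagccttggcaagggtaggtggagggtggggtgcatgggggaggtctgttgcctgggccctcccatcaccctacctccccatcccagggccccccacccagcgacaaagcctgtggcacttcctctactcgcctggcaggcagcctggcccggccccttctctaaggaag
Tek: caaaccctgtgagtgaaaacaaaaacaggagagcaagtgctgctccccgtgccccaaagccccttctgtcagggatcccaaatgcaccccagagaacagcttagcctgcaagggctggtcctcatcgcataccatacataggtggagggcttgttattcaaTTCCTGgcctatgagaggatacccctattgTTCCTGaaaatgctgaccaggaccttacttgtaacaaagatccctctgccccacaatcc
Kdr: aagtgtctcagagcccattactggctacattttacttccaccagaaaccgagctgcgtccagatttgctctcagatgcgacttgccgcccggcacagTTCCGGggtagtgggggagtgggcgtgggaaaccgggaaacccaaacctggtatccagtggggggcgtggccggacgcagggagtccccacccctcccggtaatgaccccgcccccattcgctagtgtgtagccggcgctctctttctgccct
The Emcn and Tek windows hold 2 matches each, the Kdr window 1 and the Eng window 0. Only these forms were searched, and GGAA letters outside them, which the Eng window does hold, are not marked. Of the 3 Egfl7 windows, which belong to separate transcript starts, 1 holds 2 matches, 1 holds 1 and 1 holds 0. Either motif occurs in 35.1% of 32851 promoter windows of this length, and at least 2 matches in 8.4%. A match describes letters only.

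Plvap (10579525) encodes the protein of the diaphragms that close fenestrae and caveolae in capillaries, such as those of kidney and endocrine glands. It read 1.51 and 1.39 on tolerant arrays 3 and 4, against 1.10 and 0.78 on rejecting arrays 3 and 4. This difference was 0.51 ± 0.14 (standard error; limma adjusted p = 0.531). On arrays 1 and 2 the order was the opposite, with 0.71 and 0.75 on tolerant arrays and 1.11 and 1.24 on rejecting arrays, which differ by -0.45 ± 0.15 (standard error; limma adjusted p = 0.936). Of these 4 values only that of rejecting array 2 exceeded its line. Plvap was the only one of the 10 genes whose groups stood apart in opposite directions on the 2 sets. The share of all genes above the line also stood apart in opposite directions there, higher in tolerant samples on arrays 3 and 4 and lower on arrays 1 and 2.

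Esam (10584317) read 0.95 and 0.87 on tolerant arrays 3 and 4, against 0.61 and 0.28 on rejecting arrays 3 and 4, and all of these were under the line. On arrays 1 and 2 it read 0.59 and 0.50 for tolerant and 0.45 and 0.10 for rejecting samples, so the tolerant values were above the rejecting ones within each set. The differences were 0.46 on arrays 3 and 4 (limma adjusted p = 0.572) and 0.27 on arrays 1 and 2 (limma adjusted p = 0.936). Without rejecting replicate 4 the first was 0.30, and without rejecting replicate 2 the second was 0.09. Egfl7 (10470283), a secreted protein that endothelial cells deposit in the matrix of growing vessels, read 1.31 and 1.24 on tolerant arrays 3 and 4, against 0.93 and 0.97 on rejecting arrays 3 and 4. Both tolerant values exceeded the line and both rejecting values lay under it. The tolerant mean of Egfl7 was 1.15-fold above the mean line of the rejecting arrays. As for Emcn, no sampling error was estimated for this ratio, so it sets no lower bound on the difference. The fitted difference was 0.32 ± 0.10 (standard error; limma adjusted p = 0.588). On arrays 1 and 2 Egfl7 read 0.86 and 0.78 for tolerant and 0.95 and 0.72 for rejecting samples, and these overlapped.

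Of the 10 genes, 3 (Emcn, Eng and Egfl7) lay above the line on both tolerant arrays numbered 3 and 4 and on neither rejecting array of that set, a pattern that 2.36% of all probe sets shared. Plvap was above the line on both tolerant arrays and on rejecting array 3.

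The best-known identity genes of the endothelium did not follow. Cdh5, which encodes VE-cadherin, the adhesion molecule of endothelial junctions, read 0.50 and 0.58 on tolerant arrays 3 and 4, against 0.51 and 0.32 on rejecting arrays 3 and 4. Its difference was 0.13 with a 95% interval of -0.17 to 0.42. For Pecam1, an immunoglobulin-like adhesion molecule, tolerant array 3 gave 0.94 and tolerant array 4 gave 0.46, against 0.91 and 0.46 on the rejecting arrays, a difference of 0.02 with an interval of -0.54 to 0.58. Among the receptor genes the differences were as small. Kdr, the main VEGF receptor of endothelium, had a difference of -0.06 with an interval of -0.40 to 0.27, and Tek, the angiopoietin receptor, had -0.01 with an interval of -0.33 to 0.31. Vwf, the adhesive glycoprotein stored in endothelial granules and platelets, read 0.99 and 0.58 on tolerant arrays 3 and 4, against 1.11 and 0.75 on rejecting arrays 3 and 4. It had a difference of -0.15 with an interval of -0.63 to 0.34, and its value on rejecting array 3 was the only one above a line. A small difference between values at background does not show that expression was the same.

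**Figure D2:**
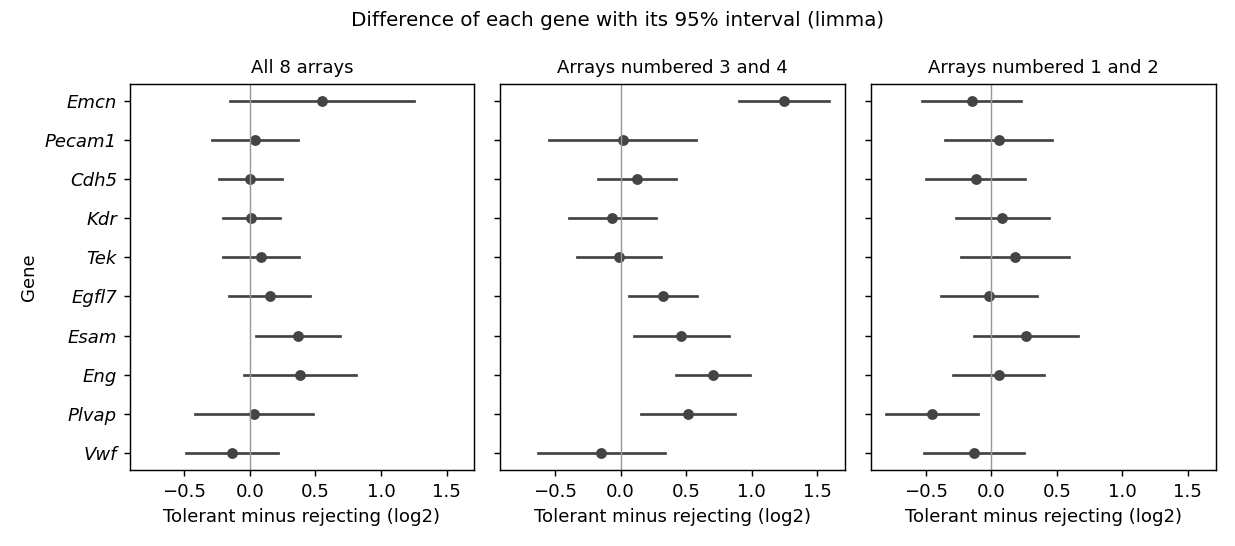
Tolerant minus rejecting difference (x axis, log2) of each endothelial gene (y axis) with its 95% interval from limma, over all 8 arrays, on arrays numbered 3 and 4 and on arrays numbered 1 and 2; the vertical line is 0. On arrays numbered 3 and 4 Emcn (1.25), Eng (0.71), Plvap (0.51), Esam (0.46) and Egfl7 (0.32) have intervals above 0, while Plvap (-0.45) has an interval below 0 on arrays numbered 1 and 2.

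On the arrays numbered 1 and 2, 5 of the 10 differences were above 0, against 49.4% of all probe sets, and the median was 0.02. Without tolerant replicate 2 the count above 0 was 8 of 10, and the median was below 0 when any of the other 3 arrays was left out. None passed in limma, where 0% of all probe sets did (1 of the 10, Plvap, had an unadjusted p under 0.05, against 1093 probe sets or 5.15%). The groups did not overlap for Esam and Eng, higher in tolerant samples, against 17.2% of all probe sets. They did not overlap for Plvap, lower in tolerant samples, against 17.1%. The number of genes standing apart with tolerant samples higher was 5 without tolerant replicate 2 and 4 without rejecting replicate 1 or rejecting replicate 2, where a group of 1 array separates more easily. Of the 40 values of these genes on these arrays, 1 exceeded its line, which limits what these arrays can show.

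An interaction term in limma asked whether the tolerant minus rejecting difference was unequal on the 2 sets. None of the 10 genes passed, against 0.0566% of all probe sets. Emcn had an interaction of 1.40 ± 0.22 (standard error; adjusted p = 0.0868), which went to 0.0421 where the probe sets of a gene were averaged and ran from 0.0421 to 0.304 over the alternatives. Plvap had 0.96 ± 0.20 (standard error; adjusted p = 0.225) and Eng 0.65 ± 0.18 (standard error; adjusted p = 0.433). The other 7 genes lay between -0.19 for Tek and 0.34 for Egfl7.

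Further genes of the endothelium were read on the arrays numbered 3 and 4. On these arrays 48.2% of all probe sets had a difference above 0 and 0.0518% passed in either direction. Of 18 other identity genes, 0 passed, 10 had a difference above 0 and the median was 0.08. Only 2 of the 18 exceeded a background line, each on 1 array: Icam2, an adhesion molecule, on tolerant array 3 and Ehd3, typical of glomerular capillaries, on tolerant array 4. Cldn5, the claudin of endothelial tight junctions, had the smallest unadjusted p of that list, with 0.96 and 0.76 on tolerant arrays and 0.54 and 0.62 on rejecting arrays (limma adjusted p = 0.699). All 4 values were under the line.

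Among 10 ligands of the VEGF, angiopoietin and BMP families, 0 passed and the median difference was 0.19. Vegfa, which attracts and sustains endothelial cells and is made by many other cells, read 1.39 and 1.32 on tolerant arrays 3 and 4, against 1.13 and 1.17 on rejecting arrays 3 and 4 (limma adjusted p = 0.716). Among 7 measured receptors of these families, 0 passed and the median was 0.19, but Flt4, Nrp1, Nrp2, Tie1 and Bmpr2 were under the line on all 8 arrays. Flt1, the other main VEGF receptor of endothelium, read 0.81 and 1.14 on tolerant arrays 3 and 4, against 0.59 and 0.91 on rejecting arrays 3 and 4.

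Of 12 transcription factors active in endothelium, 0 passed, 6 were higher, and the median was 0.01. Klf4, a shear-responsive zinc finger factor, had a difference of -0.40 (limma adjusted p = 0.547), and Lmo2, a cofactor of blood and vessel development, had 0.39 (limma adjusted p = 0.586). Erg, an ETS factor of endothelium, had -0.15 and was under the line on all 8 arrays. Of 5 genes of activated endothelium, 0 passed, with a median of 0.08. Icam1, the adhesion molecule that leukocytes bind on inflamed vessels and that many leukocytes carry too, read 1.10 and 1.48 on tolerant arrays 3 and 4, against 0.70 and 0.78 on rejecting arrays 3 and 4 (limma adjusted p = 0.520). Sele, Selp, Vcam1 and Ackr1 were under the line on all 8 arrays. Of 5 measured lymphatic genes 0 passed, with a median of 0.04, and Lyve1, Prox1, Flt4 and Reln were under the line throughout.

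Markers of other cell types were read on the same 4 arrays, because several of them were higher on the tolerant arrays. Since that outcome led to the choice, it is not an independent observation. Sums are on the linear scale and give the lower value of each group first, not the order of the array numbers. No background was taken off, so probe sets under the line add to every sum. The endothelial genes summed to 19.8 and 21.6 on the tolerant arrays, against 15.1 and 17.2 on the rejecting arrays. Kidney tubule markers summed to 58.4 and 137 on tolerant arrays, against 16.9 and 17.5 on rejecting arrays, with 8 of 9 higher and 2 passing, Slc12a3 and Calb1. Only Lrp2 and Cubn of that list were under the line on all 8 arrays. Fibroblast markers summed to 52.1 and 65.5 on tolerant arrays, against 23.3 and 28.2 on rejecting arrays, with 8 of 8 higher and 0 passing, and Lum, Pdgfra, Postn and Fap under the line on all 8 arrays. Macrophage markers, which bear on Eng, summed to 37.4 and 42.3 on tolerant arrays, against 14.9 and 22.6 on rejecting arrays, with 9 of 10 higher, 0 passing, and Adgre1 and Itgam under the line on all 8. Of all probe sets, 48.2% had a difference above 0 on these 4 arrays and 0.0518% passed in either direction. On arrays numbered 1 and 2, 3 of 9 kidney tubule, 3 of 8 fibroblast and 6 of 10 macrophage markers were higher. Their medians there were -0.04, -0.07 and 0.03. The endothelial genes summed there to 15.0 and 15.8 on tolerant arrays, against 15.5 and 16.0 on rejecting arrays. The part of these cell types in the endothelial differences was not tested.

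Platelets share VWF, PECAM1 and ESAM with endothelium, and pericytes sheathe small vessels, so their markers were read as well. All 7 measured platelet markers, among them Itga2b, Pf4 and Gp9, were under the line on all 8 arrays. On the set numbered 3 and 4, again with the lower value first, the list summed to 9.10 and 9.57 on tolerant arrays. The rejecting arrays of that set gave 9.81 and 10.2. Pericyte and smooth muscle markers summed to 17.4 and 18.5 on tolerant arrays, against 17.4 and 17.6 on rejecting arrays. In that list 8 of 10 were under the line on all 8 arrays, among them Pdgfrb, Rgs5 and Cspg4. T cell markers summed to 20.9 and 31.7 on tolerant arrays, against 16.5 and 19.2 on rejecting arrays. In that list 7 of 9 were higher, against 48.2% of all probe sets, and 0 passed. Epithelial markers had a median difference of 0.23 with 6 of 6 higher and 0 passing, and erythroid markers one of 0.23 with 3 of 4 higher and 0 passing. Podocyte and B cell markers had medians of -0.17 and -0.05, with 1 of 4 and 1 of 3 higher and 0 passing in either.

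**Figure D3:**
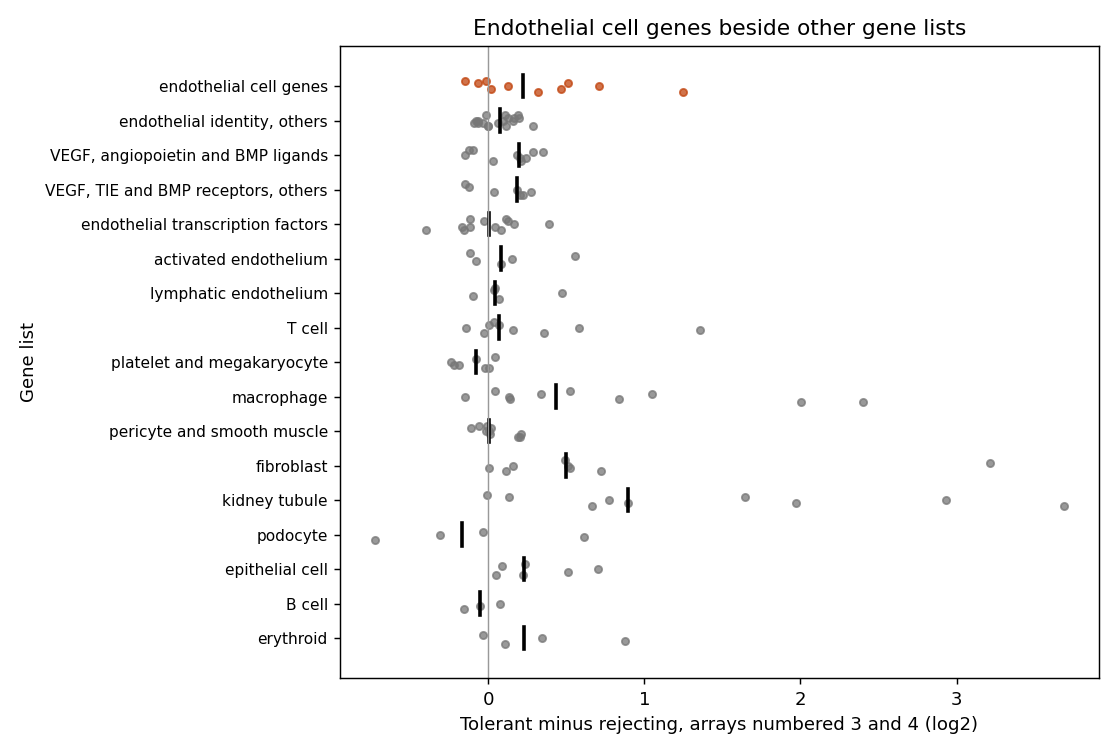
Tolerant minus rejecting difference on arrays numbered 3 and 4 (x axis, log2) of every measured gene of each list (y axis), 1 point per gene, with a black bar at the median of the list. The endothelial genes have a median of 0.22 with Emcn farthest to the right, while kidney tubule (0.89), fibroblast (0.50) and macrophage lists (0.43) reach further.

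The genes with a profile most like that of Emcn over the 8 arrays were Gpc3, Sostdc1, Plxdc2, Ldhb and Timp3. Likeness was the root mean square distance between profiles centred on the mean of each gene, over 8 arrays and among 18819 other genes, and the 2 sets of arrays contribute to it. The distances were 0.10 for Gpc3, a cell surface glypican, 0.12 for Sostdc1, a secreted antagonist of BMP and Wnt signals, and 0.12 for Plxdc2, a transmembrane protein. They were 0.15 for Ldhb, a lactate dehydrogenase subunit, and 0.15 for Timp3, a matrix-bound inhibitor of metalloproteinases, where the median over all genes was 0.56. Gpc3 read 2.09 and 2.01 on tolerant arrays 3 and 4, against 0.83 and 0.67 on rejecting arrays 3 and 4. Its tolerant arrays 1 and 2 gave 0.55 and 0.87 and its rejecting arrays 1 and 2 gave 0.60 and 1.00. All 5 genes were above the line on both tolerant arrays numbered 3 and 4. They were chosen for likeness to Emcn, so reading high there follows from the choice. Ldhb was above its line on 4 arrays and the others on 2.

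**Figure D4:**
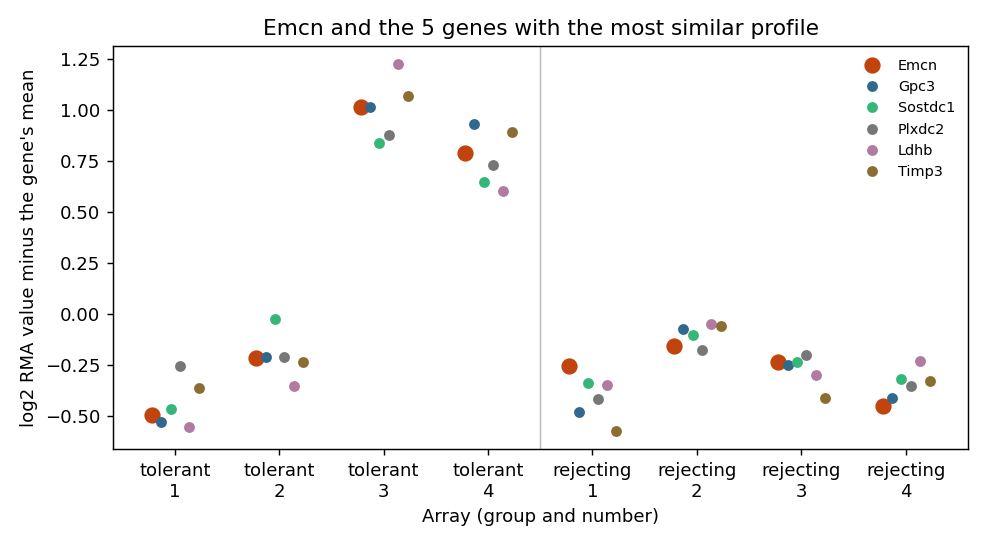
Log2 RMA value minus the mean of the gene over the 8 arrays (y axis) for Emcn and the 5 genes nearest to it, on each array (x axis), tolerant arrays left and rejecting arrays right. All 6 genes are high on tolerant arrays 3 and 4 and below their own mean on the other 6 arrays. The 5 genes were chosen for this likeness.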

How the data were processed

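Total RNA of CD3-positive T cells from xenografts was measured on 8 arrays, 4 tolerant and 4 rejecting. The table of log2 values for 35556 probe sets was deposited by the authors, who used RMA in Affymetrix Expression Console according to the submitters' processing notes. RMA removes background, equalises the arrays and summarises probes. Version and log base are not stated in these notes, and base 2 was taken from the maxima (12.57 to 12.68). The platform annotation gave exactly 1 gene symbol for 21218 probe sets, several for 1881 and none for 12457. A gene with several probe sets was represented by the one with the highest mean.

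A linear model in limma, moderated by empirical Bayes, compared tolerant with rejecting samples, 2-sided, Benjamini-Hochberg adjusted over 21218 probe sets at a threshold of 0.05 (R 4.3.3, limma 3.58.1; figures with Python 3.11.15 and matplotlib 3.10.9). The script was tested on simulated data. No set test was made. The number of arrays limits the precision. The text names all 10 genes, up to 4 genes of each other list by smallest unadjusted p on arrays numbered 3 and 4 with the highest gene of a list, and the 5 profiles nearest to Emcn. Genes outside these criteria are named where a count had to be spelled out. The members, lists, background line and sets of arrays were chosen with earlier results of these data known. Arrays with the same number deviated together from their group means (Pearson r across probe sets 0.50, 0.51, 0.41 and 0.60 for numbers 1, 2, 3 and 4), but so did unlike numbers of the same set (0.48 for tolerant 1 with rejecting 2, 0.50 for tolerant 2 with rejecting 1, 0.58 for tolerant 3 with rejecting 4 and 0.41 for tolerant 4 with rejecting 3). These values do not tell a pairing by number from membership of a set, and the labels state no pairing, so the block was an alternative only. Alternatives were the replicate block, the set of arrays as a term, leaving out each array, quantile normalization, median centring, a filter on dim probe sets, trended robust moderation, all probe sets, averaged probe sets and a 95th percentile line.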

Additional observations from a re-analysis of the deposited data

Results flagged for a closer look

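In the 4 rejecting samples Egfl7 had 1 value far from the others: rejecting array 2 read 0.72, while the other 3 rejecting arrays read between 0.93 and 0.97. Chance flags about 1 in 20 groups of 4 in this way, and 20 such groups were looked at. That rate assumes arrays alike in signal, while these 4 rejecting arrays came from both sets. All 4 rejecting values lay under the background line.

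Plvap stood apart in opposite directions on the 2 sets of arrays, tolerant above rejecting on arrays numbered 3 and 4 and below on arrays numbered 1 and 2. The difference between the differences was 0.96 and did not pass as an interaction in limma (adjusted p = 0.225, and 0.153 to 0.627 over the alternatives).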

How the results depend on the processing

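The count of endothelial genes past the threshold was 0 in each comparison and stayed at 0 without each replicate in turn. With the replicate block it was 0 too in each comparison, and the block changed no call. It became 1 on arrays numbered 3 and 4 under trended and robust moderation and 1 where probe sets of a gene were averaged. For the interaction it became 1 with averaged probe sets. Each time the gene was Emcn. With 1 probe set, Emcn kept its values in these fits, and its difference stayed at 1.25, or 1.40 for the interaction. Only the moderation or the other rows tested along with it changed, and their parts were not tested. Of 502 alternative values of single genes, 465 kept their sign and 37 did not, all 37 for genes that passed in no fit. Leaving out 1 array moved the following across 0. Over all 8 arrays the ranges were -0.039 to 0.12 for Pecam1, -0.047 to 0.081 for Cdh5, -0.040 to 0.058 for Kdr, -0.011 to 0.17 for Tek and -0.11 to 0.16 for Plvap. On arrays numbered 3 and 4 they were -0.22 to 0.26 for Pecam1, -0.21 to 0.079 for Kdr, -0.11 to 0.086 for Tek and -0.35 to 0.059 for Vwf. On arrays numbered 1 and 2 they were -0.14 to 0.25 for Pecam1, -0.24 to 0.003 for Cdh5, -0.13 to 0.099 for Egfl7 and -0.28 to 0.020 for Vwf. For the interaction they were -0.28 to 0.20 for Pecam1 and -0.22 to 0.19 for Vwf. Quantile normalization gave -0.0041 for Cdh5 and -0.091 for Plvap over all 8 arrays, 0.027 for Tek on arrays 3 and 4 and 0.011 for the interaction of Vwf. The median difference of the 10 genes ran from 0.022 to 0.11 over all 8 arrays, 0.17 to 0.31 on arrays 3 and 4, -0.052 to 0.038 on arrays 1 and 2 and 0.091 to 0.33 for the interaction when 1 array was left out. It was lowest for the interaction without rejecting replicate 4, and on arrays 1 and 2 without rejecting replicate 1. With the 95th percentile as the background line, 28 of 80 values exceeded it, against 11 with the 99th. The filter on dim probe sets left 0 of the 10 genes on arrays 1 and 2, so no value was had there. The low signal of arrays numbered 1 and 2 limits what they can show.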
